A study of Macaca fascicularis with 2 samples.

Results

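Glycosaminoglycan chains are the sulfated sugar polymers of cartilage and of the nucleus pulposus, and the genes described here encode the enzymes that build and sulfate them. A gene was a member if its symbol began with *CHST*, *CHSY*, *CHPF*, *CSGALNACT*, *XYLT*, *HS2ST*, *HS3ST*, *HS6ST* or *NDST*, or if it was *SULF1*, *SULF2*, *EXT1*, *EXT2*, an *EXTL* gene, *B3GAT3*, *B4GALT7*, *B3GALT6*, *UGDH*, *UST* or *DSE*. The matrix listed 21371 genes, of which 37 were members. No listed symbol began with *HS6ST*, and *B3GALT6*, *DSE*, *CHSY3*, *NDST1* and *NDST2* were not among the genes analysed here. The members were described in notochordal cells against all other cells, and in a second cell group against the rest.

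The cells were taken from articular cartilage (AC) and nucleus pulposus (NP) of 2 male wild-type cynomolgus monkeys aged 3 years, for which the labels name no treatment. They were digested with enzymes, sorted as live cells and sequenced as 1 pooled TAS-seq library, whose title names 3 tissue samples: AC and NP with the number of 1 monkey and AC with the number of the other. Each cell carries a hashtag, A951 to A954, but the 4 tags are paired with no tissue in the sources used here, so tags are compared only as tags. Reads, not molecules, were counted, so the intervals below cover counting error only and are too narrow for amplified copies. All cells share 1 library, and therefore no difference between cell groups was tested and no p-value is given.

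After doublets, untagged cells and cells outside the limits on genes and mitochondrial reads were left out, 5653 of 5723 cells remained. A cell was called notochordal if it had 5 or more reads of *KRT19* and 5 or more of *TBXT*, the notochord transcription factor also called brachyury, and 310 cells met this rule. Tag A952 held 236 of them, or 21.0% of its cells, and tag A951 held 67, or 6.73%. Tags A953 and A954 held 5 and 2, too few for a value by tag. The median depth was 186370 reads in notochordal cells and 199072 in the 5343 other cells, with 4061 and 3819 genes detected.

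The notochordal label was checked on genes that the rule did not use. *CDH2*, the gene of N-cadherin, was at 119.6 reads per 1000000 (rpm, all reads of a group pooled) in notochordal cells and 1.16 rpm in the others. *SHH*, a hedgehog ligand made by the notochord, was at 98.7 and 0.847 rpm, and *NCAM1* at 506 and 25.2 rpm. *KRT8*, *KRT18*, *CD24* and *NOG* were not listed. *COL2A1*, the main cartilage collagen gene, was at 1269 rpm in notochordal cells and 20072 rpm in the others. Summed over the 8 chondrocyte markers listed the level was 18309 and 35160 rpm. Of these *ACAN*, the most abundant in notochordal cells, and *SOX9* were higher there, with log2 ratios of 1.86 and 1.69, and the others were lower. The endothelial markers summed to 3.74 and 3.26 rpm, with *VWF* the most abundant at 1.41 and 1.32 rpm. The leukocyte markers summed to 28.1 and 23.3 rpm, with *CD68* the most abundant at 9.64 and 17.4 rpm. *ACTA1*, a skeletal muscle actin gene, was at 22.2 rpm in notochordal cells and 1.07 rpm in the others and the only gene listed of its list. The osteoblast markers summed to 5.33 and 55.5 rpm, with *BGLAP* and *IBSP* the most abundant, and the fibrocartilage markers to 671 and 1903 rpm. Of the fibrocartilage markers *PRSS23* was higher in notochordal cells, at 480 and 266 rpm. *ASPN*, at 3.41 and 263 rpm, *CILP*, at 5.09 and 269 rpm, *CRTAC1* and *IGFBP6* were lower there. The part of these other cell types in the results was not tested.

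Sulfated glycosaminoglycans are made in the Golgi on core proteins such as aggrecan. For chondroitin sulfate (CS) and heparan sulfate (HS), a xylose placed on a serine starts a short linker. On this linker either N-acetylgalactosamine is added to begin CS or N-acetylglucosamine to begin HS. Polymerases then extend the chain and sulfotransferases place sulfate at defined positions, and the dense fixed charge holds the water that lets cartilage and the NP bear load.

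*XYLT1*, *XYLT2*, *CSGALNACT1*, *CHST3*, *CHST8*, *CHST9*, *EXTL3* and *HS3ST2* had log2 ratios of pooled rpm, notochordal over other cells, of 1 or more, and *UGDH*, *CHSY1*, *CHST7*, *CHST15*, *UST*, *CHST1*, *CHST10*, *EXTL1*, *HS3ST5*, *SULF1* and *SULF2* had log2 ratios of -1 or below. That is 8 higher and 11 lower of the 34 members with a read in at least 10% of the cells of either group. *XYLT2*, *CHST8* and *HS3ST2* passed this limit only through notochordal cells, with a read in 9.19%, 8.78% and 9.71% of other cells. *CHST7* passed it only through other cells, with a read in 7.74% of notochordal cells. Each was called higher in the group that let it pass. With a limit of 5% the counts were also 8 and 11, beside 25.1% and 11.9% of 11524 genes. With the limit of 10%, 24.4% of all 9964 genes tested were higher and 11.4% lower, against 23.5% and 32.4% of the members. The share of members that were higher was thus near the background, and the share that were lower was above it. The size of that excess depends on how cells are averaged and chosen: with means of log2(rpm + 1) over cells, 4 members (11.8%) were lower against 7.14% of all genes, and with a rule of 1 or more *KRT19* and *TBXT* reads each, 5 (14.7%) against 4.89%. The median log2 ratio was 0.17 over these members and 0.30 over all genes tested, so a log2 ratio of 0.30 is the level of the typical gene. Set against that median, *CSGALNACT1* falls below the fold with 0.86 and the other members named above keep it.

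Within tag A952, 10 of 33 members were higher (25% of all genes) and 8 were lower (12.4% of all genes). Within tag A951, 8 of 31 members were higher (27% of all genes) and 11 lower (17.7% of all genes). Past the fold in the pooled values and with 1 sign in both tags, there were 7 higher members (22.5% of all genes) and 9 lower members (11.1% of all genes). *HS3ST2*, *UST* and *HS3ST5* were the members past the fold whose sign differed between the tags. For *HS3ST2* the sign in A951 rests on only 4 notochordal reads. *CHST2*, *CHST4* and *HS3ST6* did not pass the limit on detection. Cells thinned to 50000 reads each had a median of 9 members with a read in both groups.

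**Figure D1:**
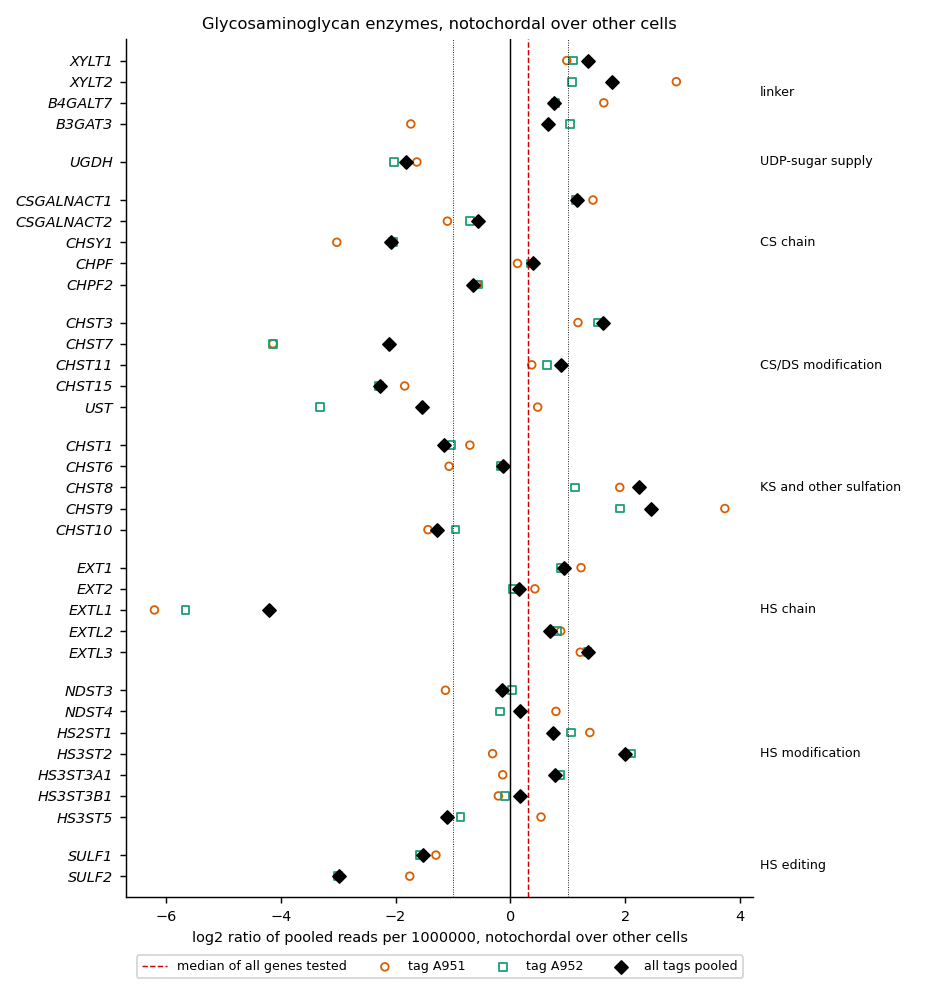
Log2 ratio of pooled reads per 1000000, notochordal over other cells, for the 34 members tested, grouped by the step they act in. Diamonds pool all tags, open symbols give tags A951 and A952, dotted lines mark log2 ratios of -1 and 1, and the dashed line is the median of all genes tested at 0.30. *SULF2* and *UGDH* lie left of -1 in both tags and *CHST3* and *EXTL3* right of 1 in both, while *UST* and *B3GAT3* lie on opposite sides of 0.

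The linker begins with xylosyltransferases, and both genes were higher in notochordal cells in pooled reads. *XYLT1* was at 656 rpm in the notochordal cells of tag A951 and 711 rpm in those of A952. In the other cells it was at 332, 335, 238 and 245 rpm in tags A951 to A954. Both notochordal values lie above all 4 values of other cells, and the pooled levels of 689 rpm (95% Poisson interval 683 to 696) and 269 rpm (269 to 270) give a log2 ratio of 1.36, a 2.56-fold difference. At equal depth 86.6% of notochordal cells (95% exact binomial interval 82.2 to 90.3%) and 66.3% of other cells (64.9 to 67.5%) had an *XYLT1* read, and 49 notochordal cells held at least 50% of its notochordal reads.

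*XYLT2* had a log2 ratio of 1.77 at much lower read counts, with 22.2 and 6.502 rpm. Its notochordal levels were 52.6 rpm in A951 and 16.01 rpm in A952, while the other cells of the 4 tags lay between 5.74 and 7.62 rpm. At least 50% of the notochordal *XYLT2* reads came from 7 cells, and with means of log2(rpm + 1) over cells, called log means from here on, the value was 0.62 and under the fold. The difference of the pair's log2 ratios, *XYLT1* minus *XYLT2*, was -0.42 pooled, -1.91 in A951 and 0.01 in A952, so the order of the pair was not stable between the tags. *B4GALT7*, which adds the linker's first galactose, had a log2 ratio of 0.77, with 1.63 in A951 and 0.79 in A952. *B3GAT3*, which ends the linker with glucuronic acid, had 0.66 pooled but -1.73 in A951 and 1.04 in A952.

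*UGDH* makes UDP-glucuronic acid, the donor of the uronic acids in CS and HS chains, and was lower in notochordal cells. Its level was 172 rpm in the notochordal cells of A951 and 135 rpm in those of A952. The other cells of the 4 tags had 532, 552, 408 and 526 rpm, all well above. Pooled, 142 rpm (140 to 145) against 500.2 rpm (499 to 501) gave a log2 ratio of -1.81, a 3.51-fold lower level, with -1.63 in A951 and -2.03 in A952. The gene was still read in 78.9% of notochordal cells after thinning (73.9 to 83.4%), against 92.2% of other cells (91.5 to 92.9%). The median cell with a read had 8 *UGDH* reads among notochordal cells and 68 among the others.

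The enzymes that start and extend the CS chain were split in direction. *CSGALNACT1*, which adds the first N-acetylgalactosamine, was at 967 rpm in the notochordal cells of A951 and 771 rpm in those of A952. In the other cells it was at 356, 350, 362 and 367 rpm, the narrowest spread over tags of all members (0.07 on the log2 scale between the highest and lowest tag). The log2 ratio was 1.17 pooled, 1.44 in A951 and 1.14 in A952. A read was found in 98.3% of notochordal cells and 91.8% of other cells after thinning. *CSGALNACT2*, an enzyme of the same reaction, was at 55.6 and 69.8 rpm in the notochordal cells of the 2 tags and at 119, 114, 106 and 89.2 rpm in the other cells of the 4 tags. Its log2 ratio was -0.57, and the pair differed by 1.74 on the log2 scale, with 2.54 in A951 and 1.84 in A952, so this pair was ordered the same way in both tags.

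*CHSY1*, a chondroitin synthase that adds both sugars of the CS repeat, was lower in notochordal cells. Its level was 10.2 rpm in those of A951 and 16.7 rpm in those of A952, against 83.3, 69.1, 61.6 and 65.8 rpm in the other cells of the 4 tags. The pooled log2 ratio of -2.07 is a 4.20-fold lower level, and the values by tag were -3.02 and -2.05. At equal depth 14.7% of notochordal cells (10.9 to 19.2%) and 31.6% of other cells (30.3 to 32.9%) had a read. The partners of the synthase stood between the folds: *CHPF*, a chondroitin polymerizing factor, was at 865 and 658 rpm with a log2 ratio of 0.39, and *CHPF2* was at 30.0 and 47.3 rpm with -0.66. *CHPF* was read in 90.6% of notochordal cells and 88.9% of other cells at equal depth.

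**Figure D2:**
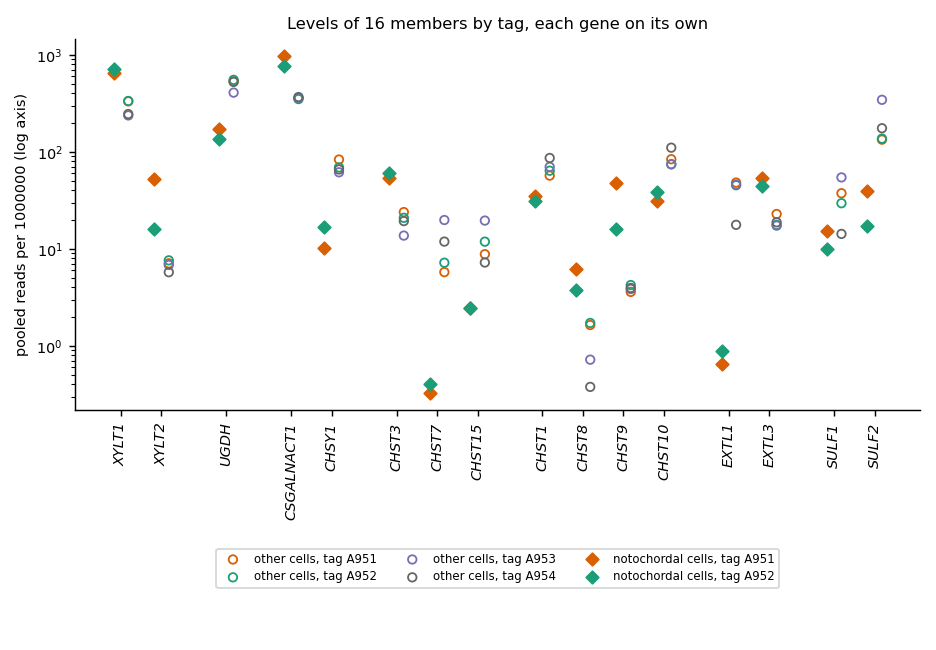
Pooled reads per 1000000 on a log axis for the 16 members past the fold with 1 sign in both tags, with filled diamonds for notochordal cells of tags A951 and A952 and open circles for other cells of the 4 tags. Levels should be read within a gene, not between genes, since they are not scaled to gene length. These members were picked by the same values, so the gap between notochordal and other values is largely set by that choice. No share over all genes is given for it. For *SULF1* the groups overlap, as its A951 notochordal value of 15.2 lies above the A954 value of other cells, 14.3.

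Of the 5 CS sulfotransferases tested, *CHST3* was higher in notochordal cells, *CHST7*, *CHST15* and *UST* were lower in the pooled values, and *CHST11* lay between the folds. *CHST3*, a chondroitin 6-O-sulfotransferase, was at 54.2 rpm in the notochordal cells of A951 and 60.1 rpm in those of A952, against 23.9, 20.9, 13.7 and 19.3 rpm in the other cells of the 4 tags. Both values exceed all 4, and the log2 ratio was 1.62 pooled (57.7 against 18.8 rpm), 1.18 in A951 and 1.52 in A952, and just under the fold at 0.97 with log means. The share of cells with a *CHST3* read at equal depth was 24.4% (19.7 to 29.7%) and 12.1% (11.3 to 13.1%). The median cell with a read had 24 *CHST3* reads among notochordal cells and 2 among the others.

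*CHST11*, the main chondroitin 4-O-sulfotransferase, was at 98.5 and 53.5 rpm, a log2 ratio of 0.88, with 0.37 in A951 and 0.64 in A952. These values are under the fold, but *CHST11* passed it in 2 of 17 alternatives, with up to 1.07 in thinned cells. Its notochordal levels of 88.9 and 103 rpm were above those of other cells, 68.7, 66.2, 54.6 and 43.3 rpm. The log2 ratio of *CHST3* exceeded that of *CHST11* by 0.74 pooled, 0.81 in A951 and 0.89 in A952. *CHST3* thus stood further above other cells than *CHST11* did in both tags. The order holds for this pair only and not for 6-O over 4-O enzymes, since *CHST7*, also a 6-O enzyme, had -2.11.

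*CHST15*, which adds a further sulfate to 4-sulfated units, had a log2 ratio of -2.26 and was at 2.46 and 2.43 rpm in the notochordal cells of A951 and A952. The other cells had 8.81, 11.9, 19.6 and 7.23 rpm. However, 2 cells held at least 50% of the notochordal *CHST15* reads, and with log means the value was -0.26. *CHST7*, another 6-O-sulfotransferase, was at 0.328 rpm in the notochordal cells of A951 and 0.409 rpm in those of A952, against 5.76, 7.201, 19.8 and 11.9 rpm in the other cells. Its pooled log2 ratio of -2.11 is smaller in size than the -4.13 and -4.14 within the tags, which rest on 4 and 21 notochordal reads. Of the pooled notochordal *CHST7* reads, 88.9% came from the top 1% of cells, and the 5 notochordal cells of tag A953 were at 72.3 rpm; the log2 ratio was -4.63 without A953, -0.21 without A952 and -0.33 with log means. *UST*, the uronyl 2-O-sulfotransferase, had a log2 ratio of -1.54 that was 0.48 in A951 and -3.32 in A952, and 3 cells held at least 50% of its notochordal reads.

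The sulfotransferases of keratan sulfate and of other glycans differed in no common direction. *CHST1*, a keratan sulfate galactose 6-O-sulfotransferase, was at 34.9 and 31.4 rpm in the notochordal cells of A951 and A952 and at 56.9, 63.9, 70.0 and 86.5 rpm in the other cells. Its log2 ratio was -1.16, with -0.71 and -1.02 in the tags, and -0.87 with log means. *CHST10*, which makes the HNK-1 epitope, was at 31.1 and 38.6 rpm against 84.0, 74.7, 74.3 and 110.5 rpm, a log2 ratio of -1.29. For both genes the notochordal values were below those of every tag of other cells. *CHST6*, which sulfates N-acetylglucosamine of keratan sulfate, had a log2 ratio of -0.13, with -1.07 in A951 and -0.16 in A952.

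*CHST9*, a sulfotransferase that acts on N-acetylgalactosamine of other glycans, was at 48.0 and 15.9 rpm in the notochordal cells of A951 and A952, and at 3.60, 4.24, 3.85 and 3.96 rpm in the other cells. The log2 ratio was 2.45 but only 0.19 with log means, and 6 cells held at least 50% of the notochordal reads. Before thinning, 47.4% of notochordal cells against 51.7% of other cells had a read. This share goes against the level, while after thinning it was 21.1% and 16.5%, and no order is read from it. *CHST8*, a near relative, was at 6.15 and 3.76 rpm in the notochordal cells of the 2 tags, while the other cells of the 4 tags lay between 0.378 and 1.72 rpm. Its log2 ratio of 2.25 rests on few cells, since 2 of them held at least 50% of the notochordal reads, and it was 0.53 without the top 1% of cells and 0.13 with log means.

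The HS chain is built by the EXT family, whose members differed from each other. *EXT1* and *EXT2*, which form the HS polymerase, had log2 ratios of 0.93 and 0.15, both under the fold. Over 17 alternatives *EXT1* passed the fold in 4, with up to 1.17 for mean rpm over cells. *EXT2* ranged from -0.15 to 0.41 and kept its sign in 15. *EXT1* was at 105 and 81.6 rpm in the notochordal cells of A951 and A952 and at 44.6, 44.5, 54.6 and 37.9 rpm in the other cells. *EXT2* was at 111 and 82.4 rpm against 82.2, 79.6, 85.3 and 72.7 rpm, so its groups overlap. The difference of the pair was 0.78 pooled, 0.80 in A951 and 0.82 in A952.

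*EXTL3*, which adds the first N-acetylglucosamine and so starts HS chains, was at 53.2 and 44.9 rpm in the notochordal cells of the 2 tags and at 22.9, 17.7, 17.4 and 18.8 rpm in the other cells of the 4 tags. Its log2 ratio was 1.36, with 1.22 and 1.35 by tag and 0.67 with log means. *EXTL1*, a related glycosyltransferase, had a log2 ratio of -4.20, which was -0.73 and under the fold with log means. It was at 0.656 and 0.896 rpm in the notochordal cells of A951 and A952, against 48.2, 45.3, 46.1 and 17.7 rpm in the other cells, which puts both notochordal values below every tag. At equal depth 14.1% of other cells (13.1 to 15.0%) had a read, and the 5.35% of notochordal cells (3.09 to 8.54%) is at the background share given for *VWF* further on. A single cell held at least 50% of the notochordal *EXTL1* reads, and without tag A953 the log2 ratio was -5.12. *EXTL2*, another member of the family, had a log2 ratio of 0.69.

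The genes of HS modification were read in few cells or stood between the folds. *HS2ST1*, the HS 2-O-sulfotransferase, had a log2 ratio of 0.75, with 1.39 in A951 and 1.06 in A952. *HS3ST3A1* and *HS3ST3B1*, both 3-O-sulfotransferases, had 0.78 and 0.17. *HS3ST5* had -1.10, with 0.53 in A951 and -0.87 in A952, and *HS3ST2* had 2.00 with a single cell holding at least 50% of its notochordal reads. *NDST3* and *NDST4*, N-deacetylase and N-sulfotransferase genes, were at 0.954 and 1.45 rpm in notochordal cells and 1.06 and 1.29 rpm in the others.

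Such levels were set beside *VWF*, a gene that neither group should express, which had a read in 6.35% of notochordal cells and 5.50% of other cells after thinning. The share was at or below that of *VWF* for 9 members in notochordal cells (*CHST2*, *CHST4*, *CHST7*, *CHST8*, *CHST15*, *EXTL1*, *NDST3*, *HS3ST2* and *HS3ST6*). In other cells the same held for 7 members (*XYLT2*, *CHST2*, *CHST4*, *CHST8*, *NDST3*, *HS3ST2* and *HS3ST6*). These shares are read as background, and no difference is read from them. The lists depend on the choice of *VWF*. Shares were lower for the endothelial genes *EMCN* (3.68% and 2.95%) and *CDH5* (1.67% and 0.894%) and for the leukocyte gene *PTPRC* (3.01% and 2.33%). In notochordal cells *EXTL1* (5.35%) and *NDST3* (4.68%) lie above *EMCN*, as do *XYLT2* (3.83%) and *NDST3* (4.00%) in other cells. Only *CHST2*, *CHST4* and *HS3ST6* are at or below *CDH5* in either group. A pooled level can still stand above that of *VWF* where few cells hold many reads. *XYLT2* in other cells was at 6.502 rpm against 1.32 rpm for *VWF*, and 134 other cells had 5 or more *XYLT2* reads against 10 for *VWF*.

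*SULF1* and *SULF2* encode endosulfatases that remove 6-O-sulfate from HS chains outside the cell, and both were lower in notochordal cells in pooled reads. *SULF2* was at 39.7 rpm in the notochordal cells of A951 and 17.1 rpm in those of A952. The other cells had 134, 137, 344 and 175 rpm, all above both values. The log2 ratio was -2.98 pooled, a 7.88-fold lower level, with -1.75 in A951 and -3.002 in A952. After thinning, 23.1% of notochordal cells (18.4 to 28.3%) and 60.5% of other cells (59.2 to 61.8%) had a read, a wider gap in share than for any other member. *SULF1* was at 15.2 and 9.93 rpm in the notochordal cells of the 2 tags and at 37.5, 29.6, 54.5 and 14.3 rpm in the other cells of the 4 tags. Its log2 ratio was -1.52 pooled but -0.40 with log means, and the notochordal value of A951 overlaps the other cells of A954 but not those of its own tag. *SULF1* minus *SULF2* was 1.45 pooled and 1.43 in A952 but 0.46 in A951.

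**Figure D3:**
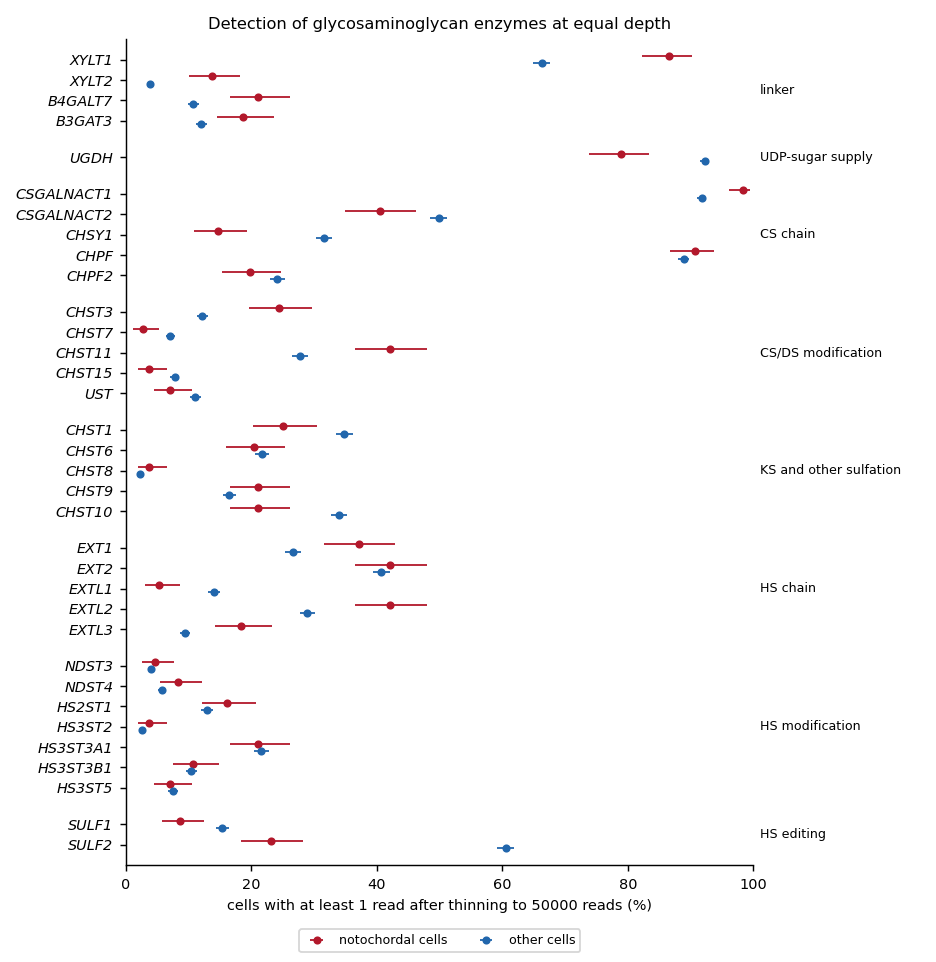
Percent of cells with at least 1 read of each of the 34 members tested, after every cell was thinned to 50000 reads, with 95% exact binomial intervals that cover counting error only (299 notochordal cells, 5147 other cells). The widest gap is that of *SULF2*, 23.1% against 60.5%, followed by *XYLT1* in the other direction, 86.6% against 66.3%.

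The same comparison was made for 75 listed genes that supply, carry or degrade the chains, of which 65 passed the limit on detection, 15 higher, 15 lower and 35 between the folds. These are 23.1% each way against 24.4% higher and 11.4% lower over all genes, so the higher count is near the background. Of 18 genes of sulfate and sugar supply, 3 were higher (16.7%) and 1 was lower (5.56%), both below the shares of all genes. *PAPSS2*, which makes the sulfate donor PAPS, was at 3064 and 2869 rpm in the notochordal cells of A951 and A952 and at 637 and 669 rpm in the other cells of these tags, a pooled log2 ratio of 2.24. *SLC35B2*, which carries PAPS into the Golgi, had a log2 ratio of 1.22, with 0.85 in A951 and 1.39 in A952. *SLC26A2*, a sulfate transporter of the cell surface, had -0.67, with -1.08 and -0.81 in these tags. *UGP2*, which makes the UDP-glucose that *UGDH* oxidizes, was at 743 and 554 rpm in the notochordal cells of these tags against 1366 and 1364 rpm, with a pooled log2 ratio of -1.45. *UGP2* and *UGDH*, consecutive enzymes towards UDP-glucuronic acid, were both lower.

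Among 9 other enzymes tested, 3 were higher and 3 lower, 33.3% each way against 24.4% and 11.4% of all genes. *HAS2*, a synthase of hyaluronan, the unsulfated chain made at the plasma membrane, was at 31.6 and 25.1 rpm in the notochordal cells of A951 and A952 and at 213 and 278 rpm in their other cells, a pooled log2 ratio of -3.02. *DSEL*, related to the dermatan sulfate epimerase, had -2.22 (-3.60 in A951 and -1.72 in A952), with 2 cells holding at least 50% of its notochordal reads. After thinning 5.35% of notochordal cells had a *DSEL* read, a share at background beside the 6.35% of *VWF*. *PXYLP1*, a xylose phosphatase of the linker, had -1.94, with -1.26 and -2.13 by tag.

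Of 15 core proteins that carry CS or keratan sulfate, 4 were higher (26.7%, near the 24.4% of all genes) and 8 were lower (53.3%, against 11.4% of all genes). *ACAN*, which encodes aggrecan, was at 12980 and 15007 rpm in the notochordal cells of A951 and A952 and at 4718 and 4906 rpm in their other cells, a pooled log2 ratio of 1.86. *SRGN*, the gene of serglycin, was at 670 and 760 rpm in the notochordal cells of these tags and at 5.78 and 24.2 rpm in their other cells, a pooled log2 ratio of 6.39. *VCAN*, which encodes versican, had -4.34, with -3.85 in A951 and -5.94 in A952. The small leucine-rich proteoglycan gene *LUM* had -5.48, with -4.48 and -4.29 by tag. Its relative *OMD* had -6.95, with -6.51 and -7.27 by tag. *OMD* had only 28 notochordal reads, in 1.67% of the thinned cells, so its notochordal level is read as background, as the share of *VWF* was 6.35%.

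Of 10 HS core proteins, 2 were higher (20.0%) and 1 lower (10.0%), no more than the 24.4% and 11.4% of all genes. *SDC2*, the gene of syndecan-2, had a log2 ratio of 2.00, with 1.99 in A951 and 1.97 in A952. The glypican gene *GPC3* had 2.38 (2.66 and 2.25 by tag), but 4 cells held at least 50% of its notochordal reads, and other cells were at 1.81 rpm, close to *VWF* at 1.32 rpm. *GPC6*, another glypican gene, had -2.23 (-3.10 and -2.33 by tag). Of 13 genes of degradation, 3 were higher (23.1%) and 2 lower (15.4%), near the 24.4% and 11.4% of all genes. *SGSH*, a lysosomal sulfamidase, had 1.86, with 2.43 in A951 and 1.67 in A952. The hyaluronan-degrading *CEMIP* and *CEMIP2* had -2.21 (-2.36 and -2.19 by tag) and -1.80 (-1.44 and -1.96 by tag).

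**Figure D4:**
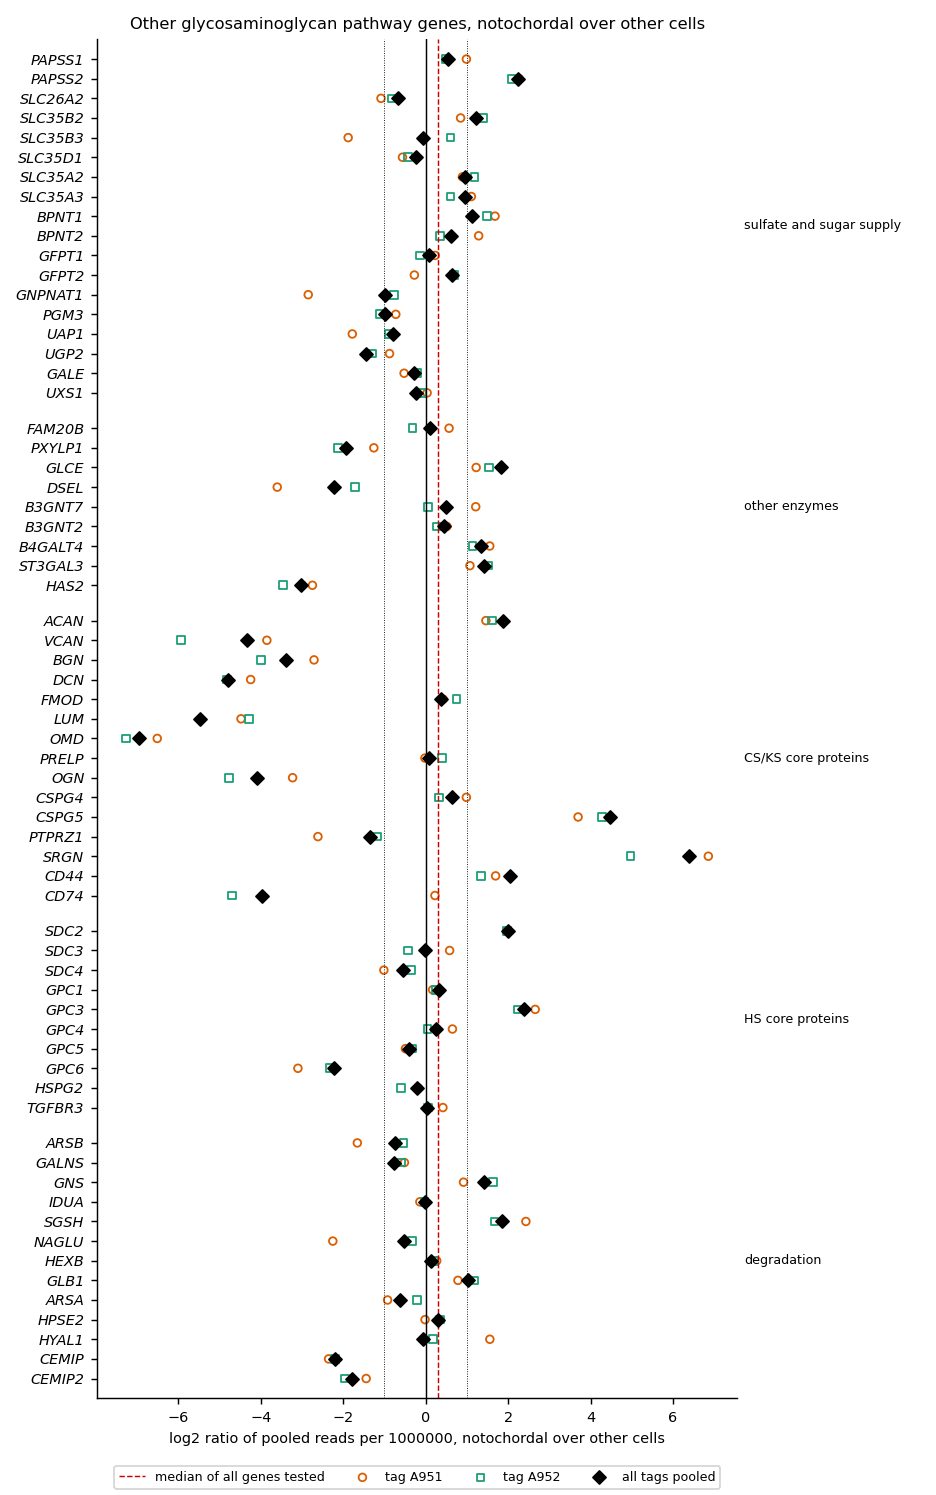
Log2 ratio of pooled reads per 1000000, notochordal over other cells, for 65 other genes of the pathway, grouped by role. Symbols and lines are as for the members, and the core proteins reach from -6.95 for *OMD*, whose notochordal share is at background, to 6.39 for *SRGN*.

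A second group was taken to see which members also differ away from the notochord. It held 885 cells that were not notochordal and had 5 or more reads of *ASPN* and of *CILP*, both genes of fibrocartilage matrix proteins, with 59, 53, 293 and 480 cells in tags A951 to A954. They were deeper than the 4458 remaining cells, with medians of 289482 and 186912 reads, and had 10 and 9 members with a read after thinning. Only *CHST7* and *HS3ST5* were past the fold upwards and only *EXTL1* and *CHST8* downwards, 2 of 34 members each, against 1.22% of all 10199 genes tested upwards and 3.02% downwards. All 4 kept their sign in all 4 tags, as did 0.647% and 2.38% of all genes. The median of the members was -0.06 and that of all genes -0.01.

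*CHST7* was at 23.3 rpm in cells with *ASPN* and *CILP* and 8.98 rpm in the rest, a log2 ratio of 1.38, with 1.33, 2.56, 0.87 and 1.31 in tags A951 to A954. *EXTL1* was at 12.3 and 40.3 rpm, a log2 ratio of -1.71, with -1.17, -1.73, -1.34 and -2.11 by tag. *HS3ST5* was at 8.67 and 3.52 rpm, a log2 ratio of 1.30, with 0.46, 1.25, 2.05 and 0.99 by tag. *CHST8* was below the level of *VWF* in both groups, at 0.372 and 1.00 rpm, with -1.58, -1.91, -0.94 and -0.45 by tag. Just under the fold stood *SULF2*, at 335 and 168 rpm, 1.996-fold higher. *SULF2* and *CHST7*, both lower in notochordal cells, were thus at their highest in the cells with *ASPN* and *CILP*, and *EXTL1* was lower in both groups than in the cells that met neither rule. *XYLT1*, *CHST11* and *CHSY1* had log2 ratios of -0.66, -0.76 and -0.68, and *CSGALNACT1* had 0.05.

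**Figure D5:**
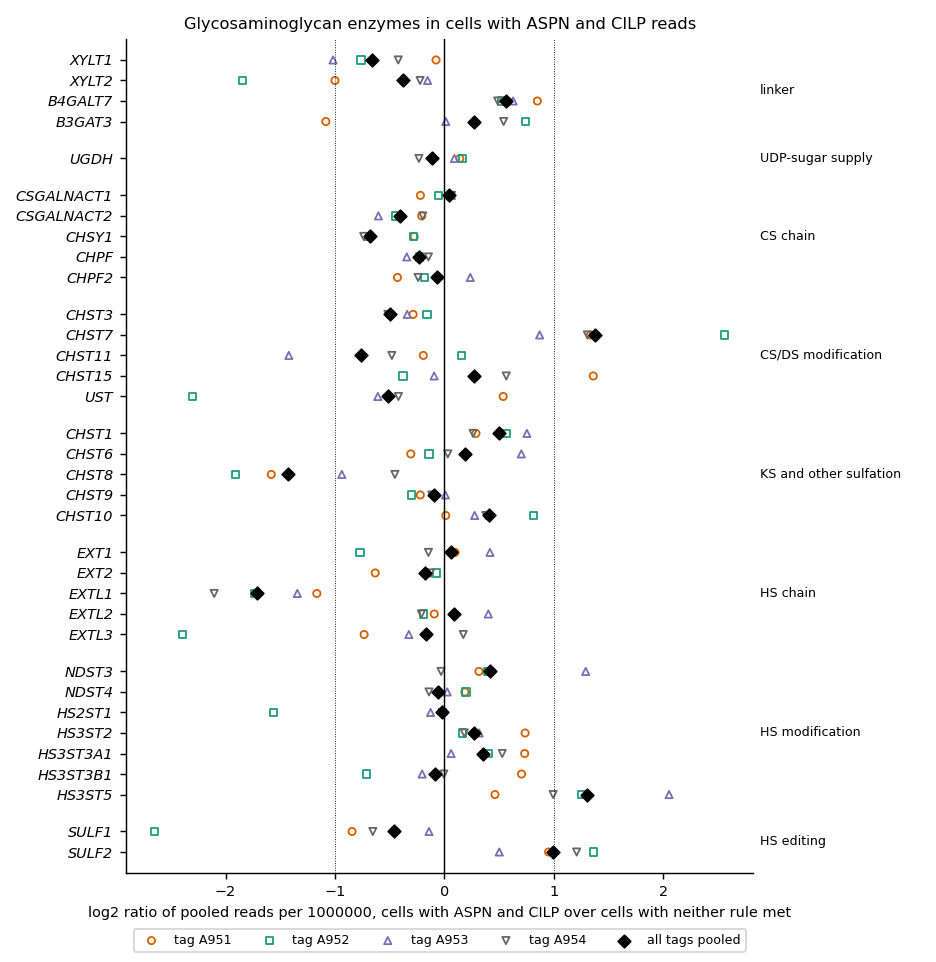
Log2 ratio of pooled reads per 1000000, cells with 5 or more reads of *ASPN* and *CILP* each over the remaining cells that were not notochordal, for the 34 members tested, pooled (diamonds) and in each of the 4 tags (open symbols). Most members lie between the dotted lines at -1 and 1, and *EXTL1* with -1.71 and *CHST7* with 1.38 lie outside them.

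Among other cells the level of a member could also depend on the tag. The highest tag was at least 2-fold above the lowest for *CHST7*, *CHST15*, *EXTL1*, *NDST3*, *HS3ST5*, *SULF1* and *SULF2*, 7 of the 33 members tested in other cells, against 10.2% of 9662 genes. Among these 33 members *SULF1* had the widest spread, 1.94 on the log2 scale between A953 and A954. It was followed by *CHST7* with 1.78 between A953 and A951 and *EXTL1* with 1.45 between A951 and A954. The shares of cells with *ASPN* and *CILP* also differed between the tags. Whether these levels follow tissue, monkey or cell composition cannot be told apart here, because the tags are not paired with tissues.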

How the data were processed

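Read alignment by the authors used HISAT2 2.2.1 and a Macaca fascicularis genome. The authors then assigned reads to whole genes with featureCounts 2.0.2, shared multiply mapped reads between genes, and deposited read counts per gene and cell without normalization. The genome build is not given in the sources used here, so no coordinates or sequences are printed. A second matrix with 1358 columns was not used here. Cells with a single tag, 200 to 9000 genes and under 5% mitochondrial reads (13 genes) were kept. Levels are pooled reads per 1000000, and a group with under 3 reads was set to 3 reads in ratios. A call is a log2 ratio of 1 or -1, for genes read in 10% or more of the cells of either group. Values by tag are given for tags with at least 20 notochordal cells. Intervals are exact Poisson or Clopper-Pearson at 95%. The members, the lists and the cell rules were chosen with earlier results of these data known, and the comparison with *VWF* was added last. All members may be named. Given with levels or log2 ratios by tag were, at least, members past the fold with 1 sign in both tags and enzyme pairs. The same holds for the 3 widest spreads over tags among the members tested in other cells. It also holds for members past the fold in cells with *ASPN* and *CILP*, and for the 3 largest ratios of each pathway list. *ACAN*, *VCAN*, *PAPSS2* and *SLC26A2* were also named. Some reads of near-identical copies may be split between genes. The calculations used Python 3.11.15, numpy 2.4.6, scipy 1.17.1, pandas 2.3.3 and matplotlib 3.10.9 and were tested on simulated data. Alternatives changed the cell limits, cell rules, scaling, averaging, depth, filter and tags.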

Additional observations from a re-analysis of the deposited data

Results flagged for a closer look

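In the other cells of the 4 tags, *EXTL1* was set apart by its lowest tag, A954 at 17.7 rpm against 45.3 rpm in the nearest tag, and *EXTL2* by its highest, A953 at 69.4 rpm against 49.9 rpm. These gaps took up 0.904 and 0.874 of the range over tags, above Dixon's 95% critical value for 4 values. That was the case for 2 of 33 members looked at, and chance flags about 1 in 20 groups.

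For 5 members the log2 ratio of notochordal over other cells had opposite signs in tags A951 and A952 and differed by at least 1, a difference that was not tested. The values in A951 and A952 were -1.73 and 1.04 for *B3GAT3*, 0.48 and -3.32 for *UST*, -1.13 and 0.03 for *NDST3*, -0.31 and 2.10 for *HS3ST2*, and 0.53 and -0.87 for *HS3ST5*. *NDST3* and *HS3ST2* were at the background share of *VWF* in both cell groups. Their values in A951 rest on only 9 and 4 notochordal reads.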

How the results depend on the processing

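With 1 or more *KRT19* and *TBXT* reads each (408 cells), 5 members were higher and 5 lower in notochordal cells, 14.7% each way against 16.5% and 4.89% of all genes, in place of 8 and 11. The log2 ratio was then 0.95 for *XYLT1*, 0.79 for *CSGALNACT1*, 0.91 for *EXTL3*, -0.92 for *UGDH*, -0.38 for *CHST1*, -0.64 for *CHST10*, -0.65 for *CHST15*, -0.92 for *EXTL1* and -0.77 for *SULF1*, all under the fold. *CHSY1* and *SULF2* were then still past the fold but smaller in size, at -1.05 and -1.14 in place of -2.07 and -2.98. With a sum of 5 reads (404 cells), 7 members were lower (21.2% against 8.24% of all genes). The members' median log2 ratio was then 0.082 in place of 0.17. With means of log2(rpm + 1) over cells, 3 were higher (8.82% against 10.7% of all genes) and 4 lower (11.8% against 7.14%) with a median of 0.051. The median was 0.31 with mean rpm over cells (0.32 over all genes) and 0.39 with thinned cells (0.32 over all genes). It was 0.14 without mitochondrial and ribosomal genes (0.27) and -0.13 with the median of all genes set to 0. Without a filter it was 0.39 (0.55 over all genes), and against other cells of tags A951 and A952 it was 0.12 (0.32). Against these cells 9 members were higher and 8 lower, 27.3% and 24.2% against 24.9% and 11.7% of all genes. With mean rpm 10 were past the fold each way, 29.4% against 25.6% and 12.0% of all genes. With thinned cells 8 were, 29.6% against 25.1% and 11.6%. Leaving out each tag gave 8 to 9 higher members (23.5 to 28.1% against 24.4 to 25.1% of all genes) and medians from 0.12 to 0.26. Lower members were then 8 to 11 (25 to 33.3% against 11.8 to 15.2% of all genes). In the cells with *ASPN* and *CILP*, 0 members were lower with log means (0.226% of all genes), 1 with thinned cells (2.36%) and 1 without the top 1% of cells of each gene (2.27%), in place of 2. Their median was 0.25 with log means and 0.036 without the top 1% of cells, and from -0.14 to -0.013 when a tag was left out, in place of -0.06.

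Of 17 alternatives, *CHSY1* and *SULF2* stayed past the fold in 17, *XYLT1*, *XYLT2*, *UGDH*, *CHST3* and *CHST9* in 16, *CHST7*, *CHST8*, *CHST10*, *CHST15*, *EXTL1* and *EXTL3* in 15, *CSGALNACT1* and *SULF1* in 14 and *CHST1* in 11. *HS3ST5* ranged from -1.74 without tag A951 to 0.0015, a change of sign, without tag A952. The cause of these moves was not tested. Leaving out the 85 other cells with 5 or more reads of *KRT19* or *TBXT* was tried only after seeing the data. It left 8 higher and 11 lower members, 23.5% and 32.4% against 24.6% and 11.4% of all genes. The ratios within tags compare the groups tag by tag, but all cells come from 1 library and no paired test was made. Members read in a few cells, and the tags with 5 and 2 notochordal cells, are limited by depth and cell number.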

Other observations

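Other proteoglycan and chain genes, chosen after their values were seen, also differed between notochordal and other cells. *CSPG5*, a CS proteoglycan gene, was at 16.7 and 0.748 rpm, a log2 ratio of 4.48, and *CD44*, the hyaluronan receptor, had 2.05. The small leucine-rich proteoglycan genes *BGN*, *DCN* and *OGN* had -3.38, -4.80 and -4.10, whereas *FMOD* and *PRELP* of the same family stood between the folds with 0.38 and 0.09. *GLCE*, which epimerizes glucuronic acid of HS, had 1.83, with 1.22 in A951 and 1.53 in A952.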
